A study of Homo sapiens with 4 samples.

Results

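The genes described here encode enzymes that build fatty acids and prepare them for use: ACLY, ACACA, ACACB, FASN, SCD, ELOVL5, ELOVL6, FADS1, FADS2 and ACSL3. They were chosen by symbol, and each of the 10 matched a row among the 20263 gene IDs of the deposited count table. All 10 also passed the filter on low counts, as did 13879 genes in all. The mRNA was sequenced from MDA-MB-231, an established human cell line of triple-negative breast cancer with a mesenchymal character. The cells were grown in DMEM with 10% fetal bovine serum and antibiotics, and either received the compound for 24 h or did not. The compared groups are DMSO, the solvent, and Neoribocic, with 2 libraries each. Neoribocic is the name in the sample titles, the treatment protocol has Rib_CA, and these are taken here as 1 treatment, of a dose that the labels do not state. The series title connects the compound to a block of the cell cycle.

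Fatty acid synthesis starts from citrate that leaves the mitochondrion. ACLY (ATP citrate lyase) splits it into acetyl-CoA, the acetyl-CoA carboxylases ACACA and ACACB turn acetyl-CoA into malonyl-CoA, and FASN (fatty acid synthase) joins these units into palmitate. SCD then adds a double bond, ELOVL6 lengthens palmitate and related chains, and FADS2, ELOVL5 and FADS1 take turns in making long polyunsaturated chains from essential fatty acids of the diet or serum. ACSL3 couples free fatty acids to coenzyme A at the endoplasmic reticulum and on lipid droplets, the step that makes them usable. Several of these genes are known targets of the SREBP transcription factors, and many tumours, breast tumours among them, are known to express the pathway strongly.

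The libraries held 34774542 to 43014212 counts. Mitochondrially encoded genes took 5.76% to 8.68% of the counts in 3 libraries and 21.7% in DMSO replicate 2. The labels do not tell whether replicates were separate cultures, and the p-values rest on a spread between samples that may be purely technical. Of 6 markers of the line, S100A4 and LGALS1 rose with Neoribocic and EGFR, AXL and CD44 fell. The remaining one, the mesenchymal marker VIM (vimentin), did not pass and lay between 2804 and 4238 CPM (a gene's count as a share of its library on the usual CPM scale, after TMM scaling). CDH1, the E-cadherin gene, and ESR1, the estrogen receptor gene, were below the filter on low counts. The summed level of 8 luminal breast markers was 394 and 408 CPM with DMSO and 630 and 453 CPM with Neoribocic, mostly from KRT8, which did not pass. FOXA1 and PGR, at or below 7.32 CPM in each library, were the luminal markers that passed, and they fell. Of 5 adipocyte markers, ADIPOQ, LEP, CIDEC and FABP4 were below the filter, and the sum of the list reached at most 1.07 CPM. Of the leukocyte markers, CD3E had no count in any library and LYZ was below the filter, while CD68 stood at 157 to 340 CPM.

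With Neoribocic 6 of the 10 genes fell and 0 rose, the others not passing the threshold (edgeR's quasi-likelihood test, Benjamini-Hochberg adjusted p under 0.05 over all genes tested). Over all genes tested 21.3% were called lower and 19.1% higher. The genes that fell were ACSL3, ACACA, FADS1, FADS2, ACACB and FASN. ACLY, SCD, ELOVL5 and ELOVL6 did not pass. In 9 of the 10 genes both Neoribocic libraries were below both DMSO libraries, an order found in 37.3% of all genes tested. The exception was ELOVL6, whose DMSO libraries lay on either side of both Neoribocic libraries. In bulk RNA a change in how many cells express a gene and a change in RNA per cell cannot be told apart. The median log2 fold change, Neoribocic minus DMSO, was -0.94 over the 10 genes and 0.01 over all genes tested. DESeq2 called 6 of the 10 lower, where 3105 of 13879 genes were, and limma-voom called 5, where 2899 were. Both also called 0 of the 10 higher, against 20.7% and 18.7% of all genes, and every one of the 10 fold changes was negative. Without Neoribocic replicate 1 the test called 3 of the 10 lower (10.4% of all genes), and 2468 genes in all against 5610 with every library. Without DMSO replicate 1 it called 7 of the 10 lower (16.1% of all genes), and at an adjusted p of 0.01 it called 3 (12.6%). A block for the replicate number gave 5 calls (21% of all genes).

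**Figure D1:**
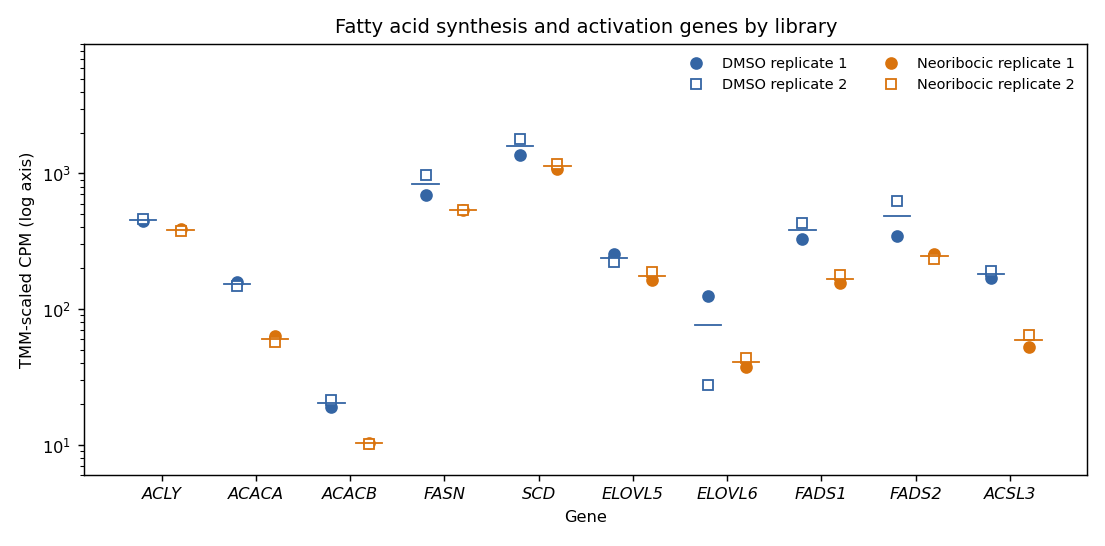
Level of each of the 10 genes in each library, as TMM-scaled CPM on a log axis. Blue marks are DMSO and orange marks Neoribocic, filled circles are replicate 1, open squares replicate 2, and short lines the group means. The groups separate in every gene except ELOVL6, where DMSO replicate 1 stood at 125 CPM and DMSO replicate 2 at 27.3 CPM.

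ACSL3 (ENSG00000123983), which activates fatty acids, had the lowest fold change of the 10 with TMM scaling. It was at 170 and 192 CPM with DMSO and at 52.8 and 64.8 CPM with Neoribocic, so both treated libraries were far below both controls. Its log2 fold change was -1.62 ± 0.20 (SE), which leaves 32.5% of the DMSO level (edgeR adjusted p = 0.00115). The call held in each of the 15 alternative fits, with values from -1.77 to -0.92. Ratios of counts within a library do not depend on how libraries are scaled. The ratio of ACSL3 to ACSL4, the synthetase that prefers arachidonic acid, was 1.36 and 2.11 with DMSO and 0.940 and 0.934 with Neoribocic. Relative to ACSL1, another long-chain synthetase, it was 5.99 and 7.75 with DMSO and 2.74 and 3.31 with Neoribocic. Both ratios were thus lower in each treated library than in each control, although with 2 libraries against 2 the smallest two-sided p of an exact permutation test is 0.333.

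The acetyl-CoA carboxylases make malonyl-CoA in different places: ACACA in the cytosol for synthesis, and ACACB at the mitochondrial surface, where malonyl-CoA restrains the uptake of fatty acids for oxidation. ACACA (ENSG00000278540) stood at 157 and 148 CPM with DMSO and at 63.5 and 57.3 CPM with Neoribocic. These replicate pairs lay close together, and the fall between groups was many times their spread. Its log2 fold change was -1.33 ± 0.19 (edgeR adjusted p = 0.00164), or 39.6% of the DMSO level. ACACB (ENSG00000076555) was much scarcer, at 19.0 and 21.5 CPM with DMSO and 10.4 and 10.1 CPM with Neoribocic. Its log2 fold change was -0.98 ± 0.23 (edgeR adjusted p = 0.0101), and the call was lost without Neoribocic replicate 1 (adjusted p = 0.0587). The ratio of ACACA to ACACB counts went from 8.25 and 6.88 with DMSO to 6.13 and 5.67 with Neoribocic, so ACACA remained the more counted carboxylase in each library. Corrected for transcript length and GC content, as described further on, ACACA was at -0.67 ± 0.17 and ACACB at -0.79 ± 0.17. These corrected values lay within an SE of each other, so the direction of this ratio's change is not settled.

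FASN (ENSG00000169710), the synthase, was at 695 and 973 CPM with DMSO and at 540 and 536 CPM with Neoribocic. The treated libraries nearly coincided, and the controls differed 1.40-fold from each other. The log2 fold change was -0.63 ± 0.22, just past the threshold (edgeR adjusted p = 0.0488), and 7 of the 15 alternative fits called it, with values from -0.86 to -0.36. Among the fits that lost the call were those without DMSO replicate 2 (adjusted p = 0.241), Neoribocic replicate 1 (0.184) or Neoribocic replicate 2 (0.148).

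ACLY (ENSG00000131473), which supplies the acetyl-CoA, had the fold change nearest 0 with TMM scaling, whereas after the length and GC correction SCD, ELOVL5 and ELOVL6 were nearer 0. It was at 446 and 461 CPM with DMSO and at 387 and 374 CPM with Neoribocic, a log2 fold change of -0.25 with a 95% interval of -0.67 to 0.16 (edgeR adjusted p = 0.290). The interval leaves room for no change and for a fall of about the size seen in FASN. The ratio of ACACA to ACLY counts was 0.352 and 0.320 with DMSO and 0.164 and 0.153 with Neoribocic. The ratio was lower in both treated libraries, and the corrected log2 fold changes, -0.67 for ACACA and -0.30 for ACLY, lie closer together than the uncorrected ones. The ratio of ACACA to FASN was also lower in both treated libraries, at 0.118 and 0.107 against 0.226 and 0.152. With the correction FASN was at -0.82 ± 0.17, within an SE of ACACA, so the direction of that ratio's change is not settled.

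The front-end desaturases FADS1 and FADS2 insert double bonds into polyunsaturated chains, FADS2 first and FADS1 after elongation, and their genes are neighbours on chromosome 11. FADS1 (ENSG00000149485) was at 331 and 432 CPM with DMSO and at 157 and 179 CPM with Neoribocic. The groups were well apart, with a log2 fold change of -1.18 ± 0.21 (edgeR adjusted p = 0.00370) that was called in all 15 alternative fits. FADS2 (ENSG00000134824) was at 347 and 622 CPM with DMSO and at 257 and 232 CPM with Neoribocic. Its treated libraries agreed while its controls differed 1.79-fold, a gap reached by 4.42% of the 9490 genes with a mean of at least 10 CPM in DMSO. The log2 fold change was -0.99 ± 0.28 (edgeR adjusted p = 0.0270). It was -0.49 without DMSO replicate 2, and the call was lost there (adjusted p = 0.132) and without Neoribocic replicate 1 (0.112) or 2 (0.115). The ratio of FADS1 to FADS2 counts did not separate the groups, at 0.954 and 0.695 with DMSO and 0.612 and 0.768 with Neoribocic. Of the exon bases of FADS1 4.79% overlap FADS2 on the opposite strand in GENCODE release 29. No source used here says whether counting used strand, so reads of that stretch cannot be assigned to either gene.

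SCD (ENSG00000099194), which makes oleate and palmitoleate, had the highest level of the 10, with 1378 and 1805 CPM in DMSO and 1083 and 1170 CPM in Neoribocic. Both treated libraries were lower, but the spread of the controls was large. The log2 fold change was -0.50 with a 95% interval of -1.001 to 0.0038 (edgeR adjusted p = 0.100). The ratio of SCD to FASN counts was 1.98 and 1.86 with DMSO and 2.01 and 2.18 with Neoribocic, so it was slightly higher in both treated libraries. After the length and GC correction the log2 fold changes, -0.03 for SCD and -0.82 for FASN, lay further apart than the uncorrected ones.

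The elongases did not pass the threshold. ELOVL5 (ENSG00000012660), the elongase of polyunsaturated chains, was at 255 and 224 CPM with DMSO and at 163 and 188 CPM with Neoribocic. The groups did not overlap, and the log2 fold change was -0.45 with a 95% interval of -0.89 to -0.013, before adjustment over all genes (edgeR adjusted p = 0.0905). ELOVL6 (ENSG00000170522), the elongase that makes stearate from palmitate, was at 125 and 27.3 CPM with DMSO and at 37.4 and 43.9 CPM with Neoribocic. Its DMSO libraries differed 4.56-fold, a gap reached by 0.285% of the 9490 genes above, while its treated libraries differed 1.17-fold. The log2 fold change of -0.90 ± 0.78 therefore rests on which control is used. It was -1.61 without DMSO replicate 2 (edgeR adjusted p = 0.00677) and 0.57 without DMSO replicate 1 (adjusted p = 0.158).

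**Figure D2:**
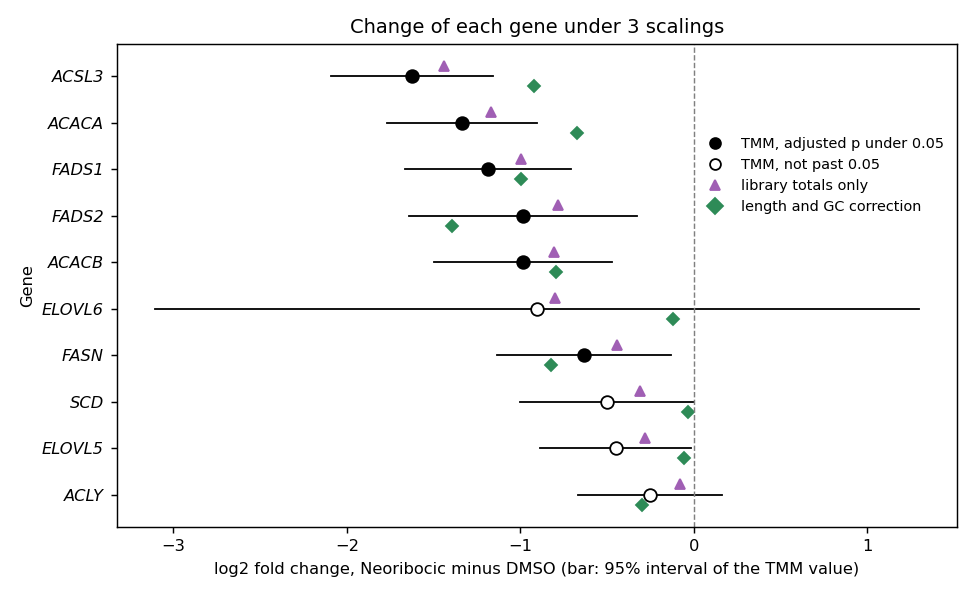
Log2 fold change of each gene, Neoribocic minus DMSO, ordered by size. Circles are values with TMM scaling (filled where the adjusted p was under 0.05) with their 95% intervals, triangles are values with library totals only, and diamonds are values corrected for transcript length and GC content. The 6 genes that fell keep negative values with all of these scalings, and SCD, ELOVL5 and ELOVL6 move close to 0 with the correction.

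Levels can be set between genes only per length, here as CPM per kilobase of 1 GENCODE transcript of each gene. The order depends on that transcript. For FADS2 it has 3630 bases against 11026 in all its exons merged, and for FADS1 4525 against 10230, while SCD has 5362 either way. By this measure SCD led with DMSO at 297 ± 56.4 (SD, n = 2), followed by FADS2 at 133 ± 53.6, ACLY at 105 ± 2.50, FASN at 97.4 ± 22.9, ELOVL5 at 84.7 ± 7.69 and FADS1 at 84.2 ± 15.8. FADS2, ACLY, FASN, ELOVL5 and FADS1 followed each other within the spread of neighbouring values. Lower stood ACSL3 at 31.9 ± 2.82, ACACA at 15.9 ± 0.692, ELOVL6 at 11.8 ± 10.7 and ACACB at 2.16 ± 0.184. With Neoribocic SCD still led at 210 ± 11.5 CPM per kilobase. ACLY came next at 87.7 ± 2.11, then FADS2 at 67.4 ± 4.69, FASN at 62.8 ± 0.319 and ELOVL5 at 62.0 ± 6.35, these last 3 within their spread. FADS1 stood at 37.1 ± 3.37, ACSL3 at 10.4 ± 1.49, ACACA at 6.32 ± 0.453, ELOVL6 at 6.30 ± 0.715 and ACACB at 1.09 ± 0.0188.

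The control libraries differed from each other in some of these genes. DMSO replicate 2 was above DMSO replicate 1 in 7 of the 10 genes. The gap was 1.79-fold in FADS2, 1.40-fold in FASN, 1.31-fold in both SCD and FADS1, and 1.03-fold in ACLY. Gaps at least as large were found in 4.42% of the 9490 genes above for FADS2, 18.9% for FASN, 28.0% for SCD and 28.5% for FADS1. The share of all genes higher in DMSO replicate 2 was not counted. INSIG1, an SREBP target whose protein holds SREBP in the endoplasmic reticulum, stood at 124 and 246 CPM in the controls. DMSO replicate 2 is also the library with the high mitochondrial share, and the part of that share in the control spread was not tested. With mitochondrial genes left out, FADS2 was at -0.98 and FASN at -0.63, and 6 of the 10 genes were called lower (21.3% of all genes). Leaving out DMSO replicate 2 brought FADS2 to -0.49, FASN to -0.36 and SCD to -0.28, while ACACA was at -1.37 and ACSL3 at -1.52. Without DMSO replicate 1, SCD passed the threshold at -0.68 (edgeR adjusted p = 0.0491).

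**Figure D3:**
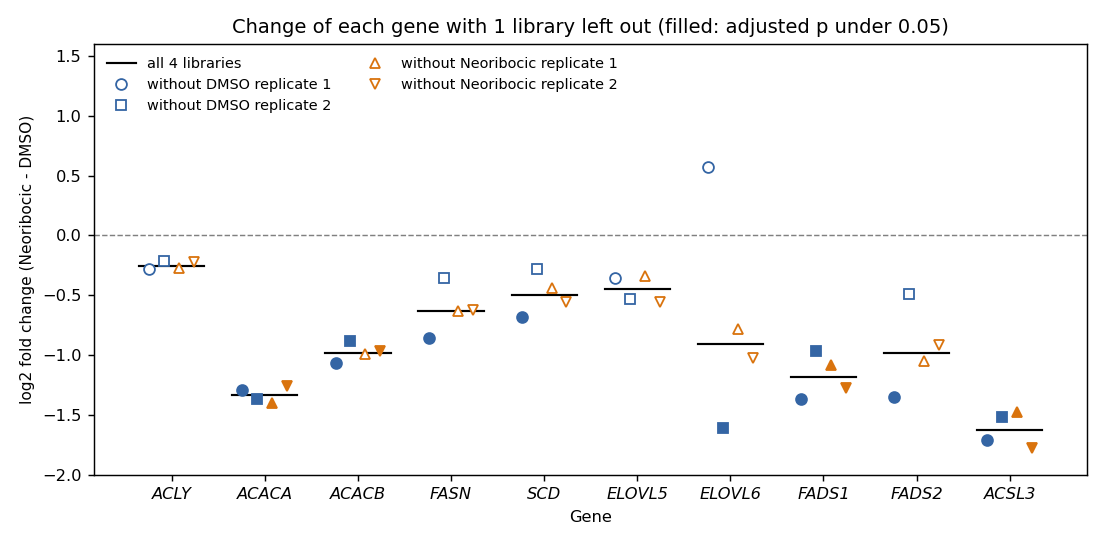
Log2 fold change of each gene, Neoribocic minus DMSO, with all 4 libraries (black lines) and with 1 library left out (marks, filled where the adjusted p was under 0.05). ACACA, FADS1 and ACSL3 are filled in all 4 cases, and ELOVL6 runs from -1.61 to 0.57 depending on the DMSO library kept.

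Log2 fold changes in this comparison followed transcript length and GC content. The median over all tested genes was 0.73 in the 10% with the shortest transcripts and -0.71 in the 10% with the longest. It was -0.54 in the 10% with the lowest GC content and 0.64 in the 10% with the highest. The transcripts of ACACA (9554 bases), ACACB (9360 bases) and FASN (8565 bases) belong to the longest 10%. That of ACSL3 (38.1% GC) belongs to the 10% lowest in GC, and that of FASN (65.3% GC) to the 10% highest. Removing a smooth surface of length and GC content from each library left the same 6 genes called lower, where 19.2% of all genes were. Of the 2960 genes called lower without the correction, 1974 were also called lower with it. Values moved in both directions. ACACA went from -1.33 to -0.67 and ACSL3 from -1.62 to -0.92, while FADS2, with 60.7% GC, went from -0.99 to -1.39 and FASN from -0.63 to -0.82, so that FADS2 had the lowest corrected value. FADS1 was at -0.996 and ACACB at -0.79. The edgeR adjusted p of these 6 corrected values lay between 0.00749 and 0.0263. SCD was at -0.03, ELOVL5 at -0.05, ELOVL6 at -0.12 and ACLY at -0.30 after the correction. The part of length and GC content in the uncorrected falls was not tested beyond this.

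**Figure D4:**
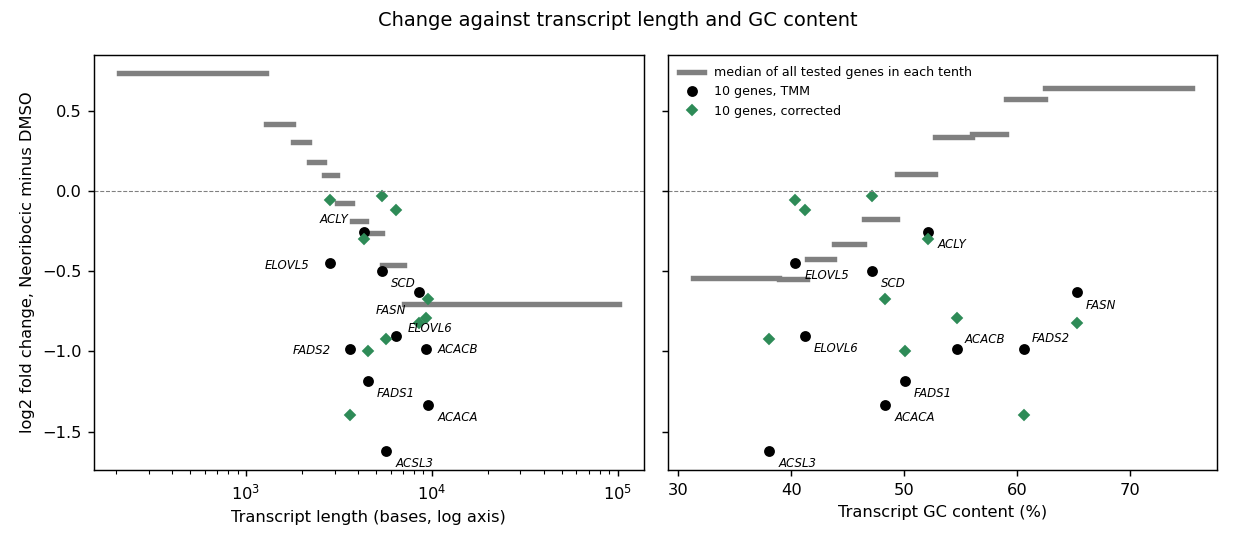
Log2 fold change, Neoribocic minus DMSO, against transcript length (left, log axis) and transcript GC content (right). Grey bars are medians of all tested genes in 10 equal bins by length or GC content, black circles the 10 genes as measured and green diamonds the same genes after the correction. All 10 black circles lie below 0. FASN lies far below the grey bar of its GC content and slightly above that of its length (-0.71), and FADS2 lies below both of its bars.

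Promoter sequence was compared for genes called lower and genes that did not pass the threshold. RefSeq sequence on GRCh38.p14 was found for 9 of the 10 genes, all but FASN. The 250 bases before each listed start were searched on both strands for 5 motifs known to bind general or lipogenic factors. A form of the sterol regulatory element, which SREBP binds, was searched as TCACNCCAC. The E-box, bound by factors such as USF1 and by SREBP-1, was searched as CACGTG. The CCAAT box, bound by NF-Y, was searched by its name. The GC box, bound by SP1 and related factors, was searched as GGGCGG. The TATA box, which positions the start of transcription, was searched as TATAAA. In the lines below capitals mark the matches on either strand, and the 4 genes shown have 1 listed start each. ACSL3 and FADS1 are genes that fell, and SCD and ELOVL5 did not pass. The windows are chr2:222860786-222861035 (plus strand) for ACSL3, chr11:61817004-61817253 (minus strand) for FADS1, chr10:100346983-100347232 (plus strand) for SCD and chr6:53348951-53349200 (minus strand) for ELOVL5.
ACSL3: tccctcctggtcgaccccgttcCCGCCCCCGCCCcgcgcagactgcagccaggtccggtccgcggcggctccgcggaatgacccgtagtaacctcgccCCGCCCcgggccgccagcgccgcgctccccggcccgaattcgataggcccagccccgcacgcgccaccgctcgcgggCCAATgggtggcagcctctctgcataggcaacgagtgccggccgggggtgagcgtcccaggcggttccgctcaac
FADS1: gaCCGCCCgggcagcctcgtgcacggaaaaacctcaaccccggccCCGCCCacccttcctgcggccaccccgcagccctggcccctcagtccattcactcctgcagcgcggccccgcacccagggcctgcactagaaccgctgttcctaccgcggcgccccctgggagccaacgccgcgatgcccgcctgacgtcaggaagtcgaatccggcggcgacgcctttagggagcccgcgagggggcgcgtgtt
SCD: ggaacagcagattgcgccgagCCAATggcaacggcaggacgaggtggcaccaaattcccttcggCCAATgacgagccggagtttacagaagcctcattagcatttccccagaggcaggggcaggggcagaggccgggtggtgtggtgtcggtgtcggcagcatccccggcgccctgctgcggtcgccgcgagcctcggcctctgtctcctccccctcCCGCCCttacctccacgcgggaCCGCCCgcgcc
ELOVL5: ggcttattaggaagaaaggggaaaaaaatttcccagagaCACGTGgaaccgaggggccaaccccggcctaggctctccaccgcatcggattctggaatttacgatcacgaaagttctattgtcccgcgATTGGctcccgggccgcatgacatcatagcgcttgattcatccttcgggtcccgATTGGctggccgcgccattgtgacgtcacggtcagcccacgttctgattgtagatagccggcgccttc

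GC boxes stand in the windows of ACSL3, FADS1 and SCD and none in that of ELOVL5, whereas CCAAT boxes stand in those of ACSL3, SCD and ELOVL5. Over the 9 genes 8 held a GC box in at least 1 window, where 73.8% of the tested genes in the table did. A CCAAT box was found in 6 of 9, against 41.3% of tested genes, and an E-box in ELOVL5 alone, against 10.97%. The 9-letter sterol element was in 0 of 9 genes and in 1.27% of tested genes, and the TATA box in 0 of 9 and in 8.42%. Among these 9 genes, no motif of the 5 divided those called lower from those that did not pass the threshold. The sterol element, TATA box and E-box were too rare here, and the GC box too common, to divide these groups. A match is only a match of letters, and elements outside these windows or with other letters were not searched.

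Lists of related genes are given with their calls and, after the length and GC correction, their corrected calls. The shares of all genes to set beside them are 19.1% higher and 21.3% lower, and with the correction 16.3% higher and 19.2% lower. Of 25 tested regulators of lipogenic transcription and of acetyl-CoA carboxylase, 6 rose and 19 did not pass, where 40.4% of all genes were called in either direction. The median log2 fold change of the list was 0.25, or 0.01 after the correction, where 6 were called higher and 3 lower. SREBF2, which encodes the SREBP that favours cholesterol genes, rose from 223 and 272 CPM to 385 and 378 CPM, a log2 fold change of 0.62 ± 0.19 (edgeR adjusted p = 0.0326). That call was lost without DMSO replicate 1 (adjusted p = 0.139) or Neoribocic replicate 1 (0.128) or 2 (0.0872). SREBF1, whose protein SREBP-1 favours the fatty acid genes, was at 79.3 and 103 CPM with DMSO and 136 and 117 CPM with Neoribocic. Both treated libraries were higher, but the log2 fold change of 0.47 ± 0.21 did not pass (edgeR adjusted p = 0.105), and it was 0.01 after the correction. INSIG1 stood at -1.07 ± 0.39 (edgeR adjusted p = 0.0744), with 67.6 and 108 CPM with Neoribocic. It was past the threshold with DESeq2 (adjusted p = 0.0144), with the replicate number as a block (0.00108) and without DMSO replicate 1 (0.0189). TRIB3, a pseudokinase that can direct acetyl-CoA carboxylase to degradation, rose from 32.4 and 24.0 CPM to 318 and 148 CPM, by 3.04 ± 0.41 on the log2 scale. MID1IP1, which promotes the polymerisation of acetyl-CoA carboxylase, rose by 0.93 ± 0.23, but its edgeR adjusted p was 0.0735 without DMSO replicate 1 and 0.0911 without Neoribocic replicate 1. PRKAB2, a subunit of the kinase AMPK, which inhibits the carboxylases, rose by 1.07 ± 0.24 (1.71 corrected), and without DMSO replicate 2 its edgeR adjusted p was 0.0551. The catalytic subunit gene PRKAA1 was at -0.54 ± 0.22 and did not pass.

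Among genes that supply citrate, acetyl-CoA and NADPH, 5 of 15 rose and 2 fell, with a median of 0.16 (corrected -0.12). After the correction 2 were called higher and 2 lower. SLC25A1, the carrier that exports citrate from mitochondria, rose from 55.2 and 60.5 CPM to 137 and 118 CPM, by 1.14 ± 0.20 on the log2 scale. After the correction it was at 0.36 and no longer past the threshold (edgeR adjusted p = 0.0833). IDH2, the mitochondrial NADP-dependent isocitrate dehydrogenase, rose by 0.91 ± 0.24, but did not pass when DMSO replicate 1 or 2 or Neoribocic replicate 1 was omitted (edgeR adjusted p = 0.0802, 0.0502 and 0.116).

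Other elongases, desaturases and elongation cycle enzymes fell in 2 of 11 cases and did not pass in 9, with a median of 0.10 (corrected -0.11), a share near that of all genes called lower. After the correction 2 were called higher and 3 lower. SCD5, the second human stearoyl-CoA desaturase, was at 46.8 and 42.8 CPM with DMSO and 21.5 and 23.9 CPM with Neoribocic. It fell by 0.98 on the log2 scale (SE 0.21; edgeR adjusted p = 0.00855), a call lost without Neoribocic replicate 1 (adjusted p = 0.0630). HACD2, a dehydratase of the elongation cycle, fell by 0.88, or -0.31 and not called after the correction (edgeR adjusted p = 0.150). It was also not called without Neoribocic replicate 1 (0.0812). FADS3, the neighbour and relative of FADS1 and FADS2, was at 80.3 and 86.4 CPM with DMSO and 115 and 88.9 CPM with Neoribocic, and was singled out after its values were seen. Its log2 fold change was 0.29 ± 0.21.

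Other acyl-CoA synthetases were split, with 4 of 15 higher and 4 lower and a median of -0.31 (corrected -0.06). The corrected calls were 4 higher and 3 lower. ACSL5, a long-chain synthetase, and ACSL4 fell by 0.77 and 0.78, against the 1.62 of ACSL3. ACSL4 was at -0.08 after the correction and ACSL5 at -0.42, both no longer called (edgeR adjusted p = 0.672 and 0.0508). Without Neoribocic replicate 1 neither was called (adjusted p = 0.166 and 0.108), nor was ACSL4 without DMSO replicate 1 (0.146) or ACSL5 without DMSO replicate 2 (0.0587). ACSL1 was at -0.45 ± 0.22 and did not pass. SLC27A1, a fatty acid transport protein with synthetase activity, rose from 19.8 and 13.4 CPM to 58.8 and 51.8 CPM, by 1.74 ± 0.26.

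Mitochondrial fatty acid synthesis, a separate pathway that feeds lipoic acid synthesis, had 5 of 9 genes higher and 4 that did not pass. With the correction 4 were called higher. Its median was 0.95 (corrected 0.67), against -0.94 for the 10 enzymes described here. MECR, its enoyl reductase, rose from 7.53 and 8.60 CPM to 31.5 and 21.8 CPM, by 1.73 ± 0.27. HSD17B8 rose by 2.70 ± 0.46 from very low levels of 0.282 and 0.488 CPM. The difference between these lists was not tested.

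Genes of mitochondrial beta oxidation rose in 8 of 22 cases and fell in 4, with a median of 0.17 (corrected 0.08). With the correction, 4 were called in each direction. ACADS, the short-chain acyl-CoA dehydrogenase, rose by 2.54 ± 0.31 and CPT2, the inner-membrane carnitine palmitoyltransferase, by 1.52 ± 0.23. CPT1A, the outer-membrane step that malonyl-CoA inhibits, was at 78.8 and 85.2 CPM with DMSO and 53.7 and 55.7 CPM with Neoribocic. Its fall of 0.58 on the log2 scale (SE 0.19; edgeR adjusted p = 0.0425) did not pass on omission of any 1 of the 4 libraries (adjusted p = 0.0835 to 0.178). Peroxisomal beta oxidation had 5 of 11 genes higher and 3 lower, with a median of 0.73 (corrected 0.44), and the corrected calls were 3 higher and 2 lower. ACAA1, the peroxisomal thiolase, rose by 1.99 ± 0.26, and HSD17B4, the bifunctional enzyme, fell by 1.11, a call lost without Neoribocic replicate 1 (edgeR adjusted p = 0.0667).

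Users and carriers of fatty acids showed no common direction. Of 26 genes of glycerolipid assembly and lipid droplets 3 rose, 3 fell and 20 did not pass, with a median of 0.27 (corrected 0.04) and corrected calls of 2 higher and 3 lower. LPIN1, the phosphatidate phosphatase, fell from 136 and 141 CPM to 68.9 and 70.5 CPM, by 0.99 on the log2 scale (corrected -0.54). Of 9 genes of uptake and binding 3 fell and 6 did not pass (median -0.11, corrected -0.26), and 2 were lower with the correction. CAV1, the caveolin gene, fell by 1.42 on the log2 scale (SE 0.19). Of 11 thioesterase and malonyl-CoA decarboxylase genes 3 rose and 8 did not pass (median 0.10, corrected 0.17), and corrected calls were 2 higher and 1 lower, with ACOT1, a cytosolic acyl-CoA thioesterase, at 1.57 ± 0.27 (corrected 0.97). Of 11 biotin and palmitoylation genes 1 rose and 1 fell (median -0.02, corrected -0.05), and the corrected fit called 1 higher.

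**Figure D5:**
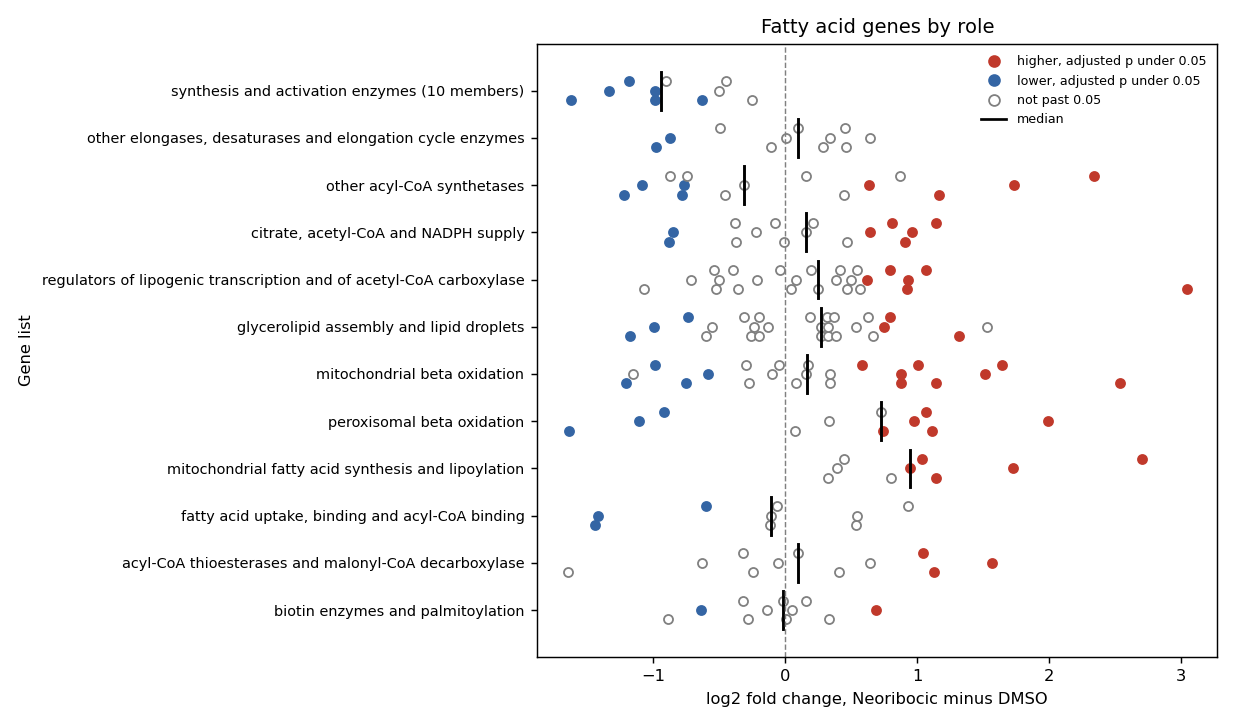
Log2 fold change, Neoribocic minus DMSO, of each tested gene in the 10-gene set (top) and in 11 lists of related genes. Filled red and blue marks passed an adjusted p of 0.05 upward and downward, open grey marks did not pass, and black lines are medians. The 10 genes lie wholly below 0, while the other lists extend to both sides of 0 or, for mitochondrial fatty acid synthesis, lie above it.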

How the data were processed

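Messenger RNA of MDA-MB-231 cells was sequenced in 2 DMSO and 2 Neoribocic libraries, each built from 1.4 µg of total RNA per the labels' protocols. The authors deposited whole-number counts for each Ensembl gene ID, without normalization. No source used here gives the aligner, counter, strand handling or human build. Only mouse builds (GRCm38, mm10) are named, per the submitters' processing notes, for IDs that are human, so coordinates are given only for RefSeq promoter windows. All 214 genes on the lists matched a row. Some list genes are not reported here.

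Counts were tested with edgeR 4.0.16 in R 4.3.3 (limma 3.58.1): filterByExpr by group, TMM scaling, robust quasi-likelihood fit on the group, glmQLFTest, and Benjamini-Hochberg adjustment over all 13879 genes tested. The standard error is the log2 fold change divided by the square root of F. Alternatives were RLE and upper-quartile factors, library totals, 2 other count filters, DESeq2 1.42.0, limma-voom, a block for the replicate number, omission of each library, halved counts (both mates of a pair may have been counted), no mitochondrial genes, a threshold of 0.01, and offsets for length and GC content (mgcv 1.9.3, 1 GENCODE transcript per gene). Where a group was left with 1 library, it was assumed to vary like the other group. Scaled by library totals alone, replicate libraries differed beyond counting noise in 74.6% (DMSO) and 68.6% (Neoribocic) of genes, so none was a copy. That scaling does not remove differences in library composition, so these shares do not measure the replicate spread gene by gene.

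The 10 genes and the 11 lists were chosen with earlier results of these data known. Genes named from the lists are 8 fixed ones (SREBF1, SREBF2, INSIG1, PRKAA1, ACSL1, ACSL4, SCD5 and CPT1A) and some of the up to 3 called genes per direction with the smallest p. FADS3 and the cell line and luminal markers were named outside this rule, after their values were seen. The scripts were tested on simulated counts. A change was planted in 200 genes. With a planted trend in length alone, the uncorrected fit made mostly false calls (1446 of 1560) and the corrected fit few (5 of 74). In the real data 40.4% of all genes tested were called, so these shares of false calls do not carry over to the real calls. The corrected fit called only 9 of 66 genes planted with a 2-fold change. Without a planted trend, the uncorrected fit called 8 of 65 such genes, and 9 of its 77 calls were false. The planted trend had no GC term, so the simulation cannot show how the correction handles GC content. Corrected values stand beside the uncorrected ones for the 10 genes, the list medians and calls, and some named genes. The other named genes have uncorrected values only.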

Additional observations from a re-analysis of the deposited data

How the results depend on the processing

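Of the 10 genes, ACACA, FADS1 and ACSL3 were called lower in all 15 alternative fits, and 9 of the 10 had negative values in each. The shares of all genes called lower, or negative, in every fit were not counted. These fits reuse the same libraries, so they are not independent of each other. The count of genes called lower among the 10 was 3 at a threshold of 0.01, where 1745 of 2883 called genes were lower. It was 3 to 7 with 1 library left out, where calls over all genes, in either direction, numbered 2468 to 4536. Both lowest counts came without Neoribocic replicate 1. The highest counts came from different fits, 7 without DMSO replicate 1 and 4536 without Neoribocic replicate 2. In each of these fits 1 group had 1 library, so the counts rest on an assumed spread. Totals in either direction also give no share of all genes called lower to set beside the 3 to 7. Over all genes tested, the median log2 fold change in these fits lay between -0.016 (without Neoribocic replicate 2) and 0.043 (without DMSO replicate 2). The median of the 10 genes was -0.81 with upper-quartile factors, -0.79 with library totals, -0.77 with limma-voom and -0.73 with the length and GC correction, and -0.96 to -0.71 with 1 library left out. Upper-quartile factors and library totals also moved the median of all genes tested to 0.13 and 0.18. Calls numbered 2650 higher and 2960 lower with TMM, and 3168 higher and 2149 lower with library totals. ELOVL6 changed sign without DMSO replicate 1, at 0.57, and was -1.61 without DMSO replicate 2. With the correction ME2, of the NADPH supply list, and VLDLR, of the uptake list, changed sign, at 0.073 and 0.30; the cause was not tested. FASN lost its call with RLE factors (edgeR adjusted p = 0.0502), upper-quartile factors (0.0989), library totals (0.126), limma-voom (0.0553) and the block (0.0538).

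With the replicate number as a block, which the labels do not explain as a pairing, the median of the 10 genes was -0.77, 5 of them were called lower (21% of all genes) and 5594 genes were called in all. Deviations of same-numbered libraries correlated at -0.055 across genes. Counting error is small for the 10 genes, the lowest count being 440 for ACACB. The precision is limited by having 2 libraries a group.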
